A study of Homo sapiens with 6 samples.

Results

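The mitochondrial genome encodes 7 subunits of respiratory complex I, and their mRNAs, MT-ND1, MT-ND2, MT-ND3, MT-ND4L, MT-ND4, MT-ND5 and MT-ND6, were followed in HEK293 cells, an established human embryonic kidney line. They were taken by transcript ID and were 7 of the 203028 transcripts quantified. All 7 were among the 97571 transcripts abundant enough to be tested. The cells carried a scrambled control shRNA (3 libraries) or an shRNA against PRPF39 (3 libraries), a protein of the U1 small nuclear ribonucleoprotein pathway of 5' splice site choice. Both groups had been transduced with lentivirus and selected with puromycin, and RNA with poly(A) tails was sequenced. The labels do not state whether replicates came from separate transductions or cultures, so every p-value below reflects only how much these libraries varied, possibly for technical reasons. Library totals ran from 113747941 to 246491084 estimated reads. No table used here pairs nuclear transcript IDs with genes, so neither the PRPF39 level, nor markers of HEK293, nor the nuclear-encoded subunits of complex I were analysed here.

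Complex I oxidises NADH, passes the electrons to ubiquinone and pumps protons across the inner mitochondrial membrane. Its mitochondrially encoded subunits form the core of the membrane arm. Their genes have no introns and are transcribed inside mitochondria as long polycistronic RNAs, which are cut mainly at the tRNAs between the genes, so the nuclear spliceosome does not act on them directly. Only MT-ND6 lies on the light strand, and its mRNA is known to carry little or no poly(A) tail. The level of MT-ND6 in poly(A)-selected RNA is therefore not its level in total RNA. In bulk RNA, a change in the number of mitochondrial transcripts per cell and a change in the cells' other RNA cannot be told apart.

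Each length in the files equalled that of the RefSeq gene of the same name on the mitochondrial chromosome of GRCh38.p14, for 7 of 7 mRNAs. MT-ND1 (ENST00000361390, 956 bases) lies at 3307 to 4262 and MT-ND2 (ENST00000361453, 1042 bases) at 4470 to 5511. MT-ND3 (ENST00000361227, 346 bases) lies at 10059 to 10404, MT-ND4L (ENST00000361335, 297 bases) at 10470 to 10766, and MT-ND4 (ENST00000361381, 1378 bases) at 10760 to 12137. MT-ND5 (ENST00000361567, 1812 bases) lies at 12337 to 14148 and MT-ND6 (ENST00000361681, 525 bases) at 14149 to 14673. MT-ND4L and MT-ND4 share 7 bases and are read from 1 bicistronic mRNA. MT-ND5 and MT-ND6 abut without sharing a base. For 4 of the 7, the length was not a whole number of codons: MT-ND1 had 2 bases left over, and MT-ND2, MT-ND3 and MT-ND4 had 1 each. Such mitochondrial mRNAs are known to have their stop codon completed by the poly(A) tail. MT-ND4L, MT-ND5 and MT-ND6 had whole numbers of codons.

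The 7 mRNAs spanned a wide range of levels, and the order was alike in both groups (plot of TPM by library). TPM, a transcript's share of all transcripts as a normalized unit, is scaled for depth and for the effective length that the quantifier gave each transcript. In control libraries the mean ran from MT-ND4L (7738 TPM) and MT-ND4 (6609 TPM) through MT-ND3 (3639 TPM), MT-ND2 (3096 TPM), MT-ND5 (2399 TPM) and MT-ND1 (2298 TPM) to MT-ND6 (256 TPM). MT-ND4L and MT-ND4 were above the next 4 in every control library, and MT-ND6 was below all others in every library of both groups. The values of MT-ND3 and MT-ND2, of MT-ND2 and MT-ND5, and of MT-ND5 and MT-ND1 overlapped between control libraries. With PRPF39 shRNA the order of the means was the same, and MT-ND2 no longer overlapped MT-ND5. MT-ND4L and MT-ND4, whose values were apart in control libraries, overlapped with PRPF39 shRNA.

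The order depended in part on the measure of length. The effective length was 41.1% to 47.5% of the annotated length for MT-ND4L, 46.5% to 49.4% for MT-ND3 and 51.4% to 55.0% for MT-ND6, against 62.2% to 74.4% for the longer 4. Per annotated kilobase, MT-ND4 led in control libraries with 3873 ± 267 CPM (reads scaled to library size; SD, n = 3) and MT-ND4L followed with 2749 ± 230 (SD, n = 3). On this scale MT-ND4 was above MT-ND4L in all 6 libraries, and in TPM it was below MT-ND4L in all 6.

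**Figure D1:**
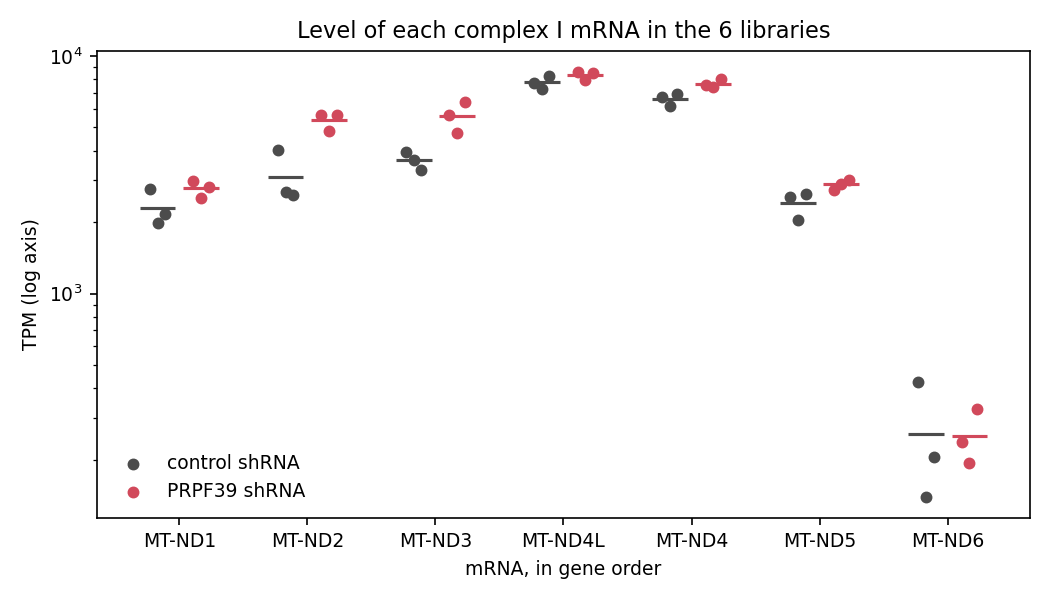
TPM (log axis) of each of the 7 complex I mRNAs, in gene order; each point is 1 library (control shRNA grey, PRPF39 shRNA red) and each line is the mean of 3 libraries. The groups are apart for MT-ND2, MT-ND3, MT-ND4 and MT-ND5 and overlap for the other 3, and the 3 control values of MT-ND6 spread from 140.0 to 425 TPM.

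The main comparison asked whether these mRNAs, which the splicing machinery does not process, differed between control and PRPF39 shRNA cells. MT-ND2 and MT-ND3 stood 1.73 and 1.54 times as high on average in TPM with PRPF39 shRNA, and neither passed the test over all transcripts. MT-ND1, MT-ND4 and MT-ND5 stood 1.15 to 1.21 times as high, MT-ND4L 1.07 times, and MT-ND6 0.985 times. None of the 7 had an adjusted p under 0.05 (quasi-likelihood test of edgeR, with Benjamini-Hochberg adjustment over 97571 transcripts). That test called 0.904% of all transcripts, 0.443% as higher. At an unadjusted p under 0.05 stood 4 of the 7 (MT-ND1, MT-ND2, MT-ND3 and MT-ND5), against 16.1% of all transcripts tested.

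In TPM the 3 PRPF39 shRNA libraries lay above all 3 control libraries for 4 of the 7 mRNAs, against 11.9% of all transcripts tested. In CPM, scaled by TMM factors (edgeR's correction for library composition), the same was true of 4 of the 7, against 12.6% of all transcripts and 15.3% of the 124 transcripts at least as abundant as MT-ND3. The lists differed: MT-ND2, MT-ND3 and MT-ND4 were apart on both scales, MT-ND5 in TPM only and MT-ND1 in CPM only. The 124 transcripts include these mRNAs except MT-ND6, and the other mitochondrial mRNAs, so they are not a separate background. All 7 log2 fold changes of the edgeR fit were above 0, but that of MT-ND6 was 0.02 ± 0.35 (SE), which settles no direction. The median of the 7 was 0.22, against -0.02 over all transcripts tested and -0.18 over those at least as abundant as MT-ND3. Over the 3286 transcripts at least as abundant as MT-ND6, the rarest of the 7, the median was 0.04, with 1854 above 0. The 7 share libraries, and all but the light-strand MT-ND6 share precursor RNAs. The 7 therefore do not move independently, and their number carries no p-value.

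MT-ND1 sits where the arm with the electron carriers meets the membrane arm and helps to form the ubiquinone site. It stood at 2758, 1981 and 2154 TPM in control replicates 1, 2 and 3 and at 2981, 2535 and 2808 TPM in PRPF39 shRNA replicates 1, 2 and 3. Control replicate 1 lay within the PRPF39 shRNA range, and the other two control libraries lay below it. In CPM the 3 control values, 1268 to 1467, were all below the PRPF39 shRNA values, 1488 to 1693. The log2 change was 0.24 ± 0.09 (SE; adjusted p = 0.247, edgeR).

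MT-ND2, MT-ND4 and MT-ND5 are the antiporter-like subunits that line up along the membrane arm as proton pumps. MT-ND2 stood at 4025, 2668 and 2596 TPM in control replicates 1, 2 and 3 and at 5632, 4812 and 5623 TPM in the PRPF39 shRNA replicates. The groups were apart, and control replicate 1 was the highest control library. The log2 change of MT-ND2 was 0.76 ± 0.13 (SE), the largest among these mRNAs. It also had their lowest adjusted p, 0.0615 (edgeR). Of the 124 transcripts at least as abundant as MT-ND3, 3 had a log2 change at least as high. These include MT-ND2 itself and another mitochondrial mRNA, MT-CYB (0.93).

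MT-ND4, the most abundant of the 7 in counts with abundance rank 4 among all transcripts, stood at 6739, 6173 and 6916 TPM in control replicates 1, 2 and 3 and at 7518, 7390.4 and 7972 TPM in the PRPF39 shRNA replicates. All PRPF39 shRNA values were above all control values, by a small margin. Its log2 change was 0.16 ± 0.07 (SE; adjusted p = 0.364, edgeR). MT-ND5, the outermost pump, stood at 2546, 2031 and 2619 TPM in control and at 2718, 2904 and 3017 TPM in PRPF39 shRNA replicates 1, 2 and 3. The TPM values were apart, and in CPM control replicate 3 (2968) was above PRPF39 shRNA replicate 1 (2936). The log2 change of MT-ND5 was 0.22 ± 0.09 (SE; adjusted p = 0.285, edgeR).

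MT-ND3, MT-ND4L and MT-ND6 are small subunits between MT-ND1 and MT-ND2, and part of the chain of charged residues through the membrane arm passes through them. MT-ND3 stood at 3953, 3642 and 3320.2 TPM in control replicates 1, 2 and 3 and at 5643, 4718 and 6399.6 TPM in the PRPF39 shRNA replicates. Every PRPF39 shRNA library was above every control library. The log2 change was 0.56 ± 0.11 (SE; adjusted p = 0.0752, edgeR).

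MT-ND4L stood at 7670, 7287 and 8256 TPM in control replicates 1, 2 and 3 and at 8557, 7883 and 8494 TPM in the PRPF39 shRNA replicates. Control replicate 3 lay within the PRPF39 shRNA range. The log2 change was 0.14 ± 0.09 (SE; adjusted p = 0.500, edgeR), close to that of MT-ND4, which is read from the same mRNA.

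MT-ND6, the light-strand mRNA, stood at 425, 140.0 and 205 TPM in control replicates 1, 2 and 3 and at 237, 193 and 328 TPM in the PRPF39 shRNA replicates. The control libraries alone spanned the whole PRPF39 shRNA range. Their coefficient of variation was 58.2% in TPM, against 5.88% to 26.0% for the 6 heavy-strand mRNAs. The lowest MT-ND6 estimate was 5085 reads. The log2 change was 0.02 ± 0.35 (SE; adjusted p = 0.985, edgeR), and without control replicate 1 it was 0.49 ± 0.24 (SE; adjusted p = 0.400, edgeR). The summed TPM of the 6 heavy-strand mRNAs was 65.2 to 170 times that of MT-ND6 in control libraries and 105 to 157 times in PRPF39 shRNA libraries, and these ranges overlapped. The counting is not stated to use strand, so reads of MT-ND6 and of RNA antisense to it cannot be told apart.

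The call for MT-ND2 and MT-ND3 depended on the test (plot of adjusted p by setting). Both were called higher by DESeq2, which called 5.02% of all transcripts higher, with adjusted p = 4.65e-06 for MT-ND2 and 5.80e-05 for MT-ND3. Both were also called by limma-voom (adjusted p = 0.0343 and 0.0435), which called 0.444% of transcripts higher. With the edgeR test limited to the 20223 transcripts whose mean reached 5 CPM, adjusted p was 0.0146 for MT-ND2 and 0.0167 for MT-ND3, and 8.55% of those transcripts were called higher. With offsets from effective lengths, edgeR's adjusted p for MT-ND2 was 0.0499978, just under the threshold, and 0.494% of transcripts were called higher. With any 1 of the 6 libraries left out neither was called, with adjusted p from 0.0520 to 0.221 for MT-ND2 and from 0.129 to 0.256 for MT-ND3 (edgeR). Those fits called only 0 to 14 transcripts higher among all tested, so few calls were made of any transcript. The log2 changes in them ran from 0.66 to 0.91 for MT-ND2 and from 0.50 to 0.64 for MT-ND3. MT-ND1, MT-ND4L, MT-ND4, MT-ND5 and MT-ND6 were called in none of these 6 fits and in none of the 10 other settings.

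**Figure D2:**
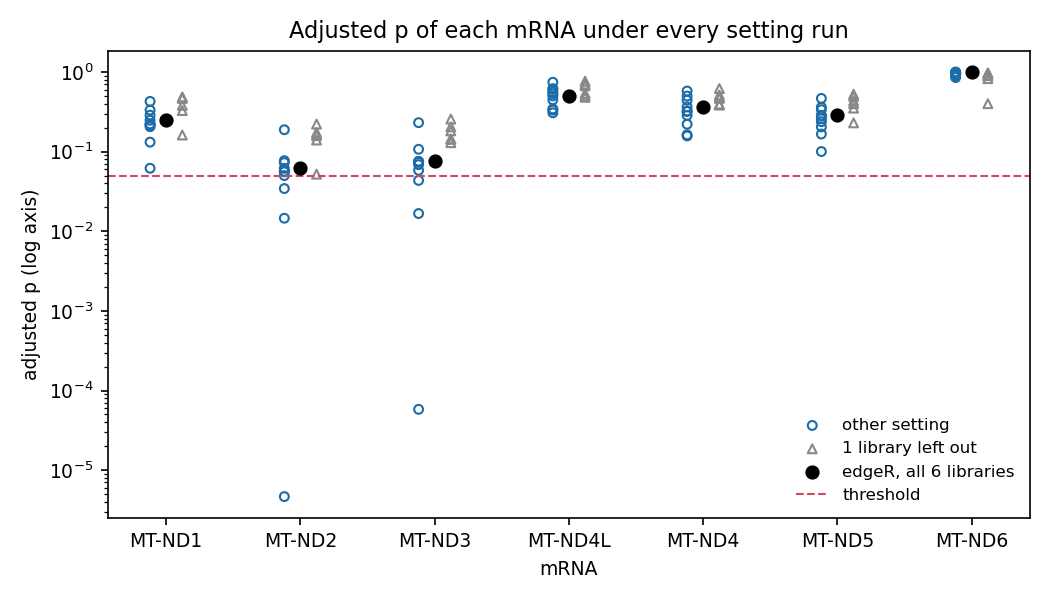
Adjusted p (log axis) of each of the 7 mRNAs: filled circles are the edgeR test with all 6 libraries, open circles the 10 other settings, triangles the 6 fits with 1 library left out, and the dashed line the threshold of 0.05. Only MT-ND2 and MT-ND3 have settings under the line, the lowest from DESeq2, and no triangle is under it.

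The make-up of the complex I mRNA pool was compared next, with each mRNA as a percentage of the summed TPM of the 7 (plot of pool shares). MT-ND2 took 14.3%, 11.2% and 9.96% of the pool in control replicates 1, 2 and 3 and 16.9%, 15.8% and 16.2% in the PRPF39 shRNA replicates. MT-ND3 took 12.7% to 15.2% in control and 15.5% to 18.5% in PRPF39 shRNA libraries. MT-ND4L took 27.3% to 31.7% in control and 24.5% to 25.9% in PRPF39 shRNA libraries. These 3 shares did not overlap between groups, and those of MT-ND1, MT-ND4, MT-ND5 and MT-ND6 did. No background share was computed for pool shares, and ratios of abundant transcripts were apart in 50% of pairs, so 3 of 7 is not shown to be unusual. The shares sum to a fixed total, so a lower share of MT-ND4L goes with higher shares of others, and its own mean TPM was not lower.

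**Figure D3:**
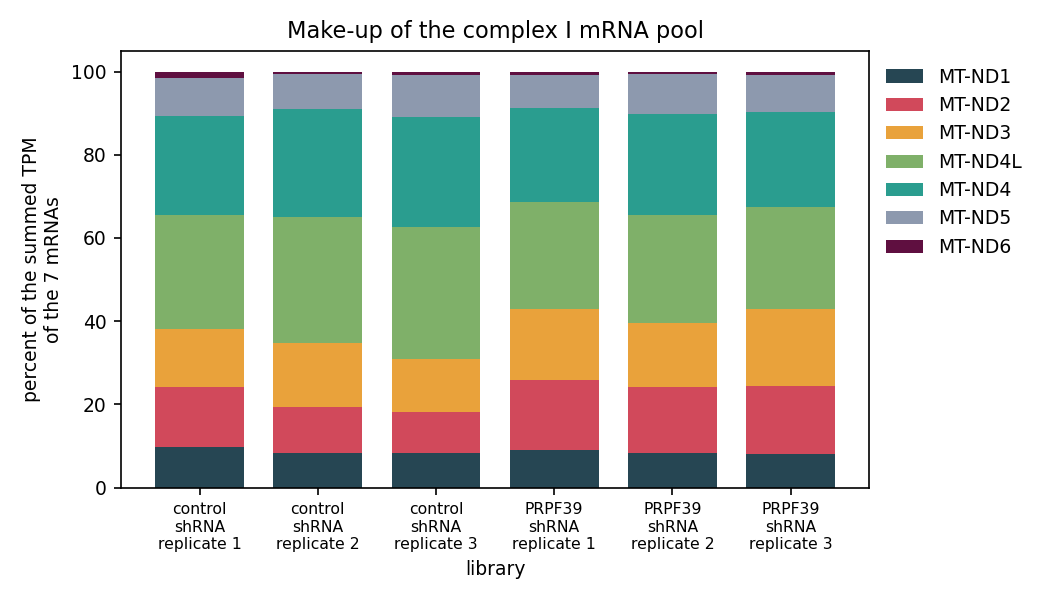
Each bar is 1 library, divided into the percentage of the summed TPM of the 7 complex I mRNAs that each mRNA holds. The share of MT-ND2 (red) is 9.96% to 14.3% in the control libraries and 15.8% to 16.9% in the PRPF39 shRNA libraries.

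Ratios between mRNAs of the same library were compared for all 21 pairs, as values without a test. The ratio of MT-ND2 to MT-ND1, neighbours on 1 precursor, was 1.46, 1.35 and 1.21 in control replicates 1, 2 and 3 and 1.89, 1.90 and 2.003 in the PRPF39 shRNA replicates. The ratio of MT-ND3 to MT-ND4 was 0.587, 0.590 and 0.480 in control and 0.751, 0.638 and 0.803 in the PRPF39 shRNA replicates. In both, every PRPF39 shRNA library was above every control library. Such a separation was found for 7 of the 21 pairs, and all of these held MT-ND2 or MT-ND3, while none of the 10 pairs without them was apart. Among all pairs of the 124 transcripts at least as abundant as MT-ND3 the ratio was apart in 50%. MT-ND6 is not among the 124, and none of its 6 pairs was apart, so that background matches only the pairs without it. The 7 pairs are not shown to be unusual. The same number of pairs, 7, was apart when CPM per annotated kilobase replaced TPM. The ratio of MT-ND4L to MT-ND4 averaged 1.17 (SD 0.029, n = 3) in control cells and 1.09 (SD 0.042, n = 3) with PRPF39 shRNA, and the values overlapped.

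Together the 7 mRNAs held 2.81%, 2.39% and 2.61% of all TPM in control replicates 1, 2 and 3 and 3.33%, 3.04% and 3.46% in the PRPF39 shRNA replicates. They took 1.24% of the estimated reads in control cells (SD 0.068, n = 3) and 1.53% with PRPF39 shRNA (SD 0.071, n = 3). On both scales the groups did not overlap. No test was made on this sum.

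The other 6 mitochondrially encoded mRNAs gave a setting for these values (plot of fold change in gene order). They encode subunits of cytochrome c oxidase (MT-CO1, MT-CO2, MT-CO3), of ATP synthase (MT-ATP6, MT-ATP8) and the cytochrome b of complex III (MT-CYB). Their lengths also equalled those of the RefSeq genes. None of the 6 passed the edgeR test over all transcripts, and 5 of the 6 had a log2 change above 0, with a median of 0.40 against 0.22 for the complex I mRNAs. MT-CYB had the largest, 0.93 ± 0.20 (SE; adjusted p = 0.0962, edgeR). Of the 10 other settings, 3 called MT-CO2 higher, as many as called MT-ND3, and 2 called MT-CYB higher. For MT-CO2 these were the filter at 5 CPM, DESeq2 and limma-voom, which called 8.55%, 5.02% and 0.444% of transcripts higher. For MT-CYB they were the first 2 of these. MT-ATP6 and MT-ATP8 were called higher and MT-CO1 lower by DESeq2 alone, and MT-CO3 was called in none. DESeq2 called 4126 of 97571 transcripts lower. MT-CO1, downstream of MT-ND2, was lower in every PRPF39 shRNA library than in every control library in CPM, as were 12.8% of all transcripts, and overlapped in TPM. Its log2 change was -0.28 ± 0.07 (SE; adjusted p = 0.142, edgeR). In CPM, 4 of the 6 had PRPF39 shRNA values above all control values, against 12.6% of all transcripts, and in TPM 2 of the 6, against 11.9%. The complex I mRNAs made up 30.0% of the TPM of the 13 mRNAs in control cells (SD 2.05, n = 3) and 30.2% with PRPF39 shRNA (SD 1.40, n = 3), and the values overlapped.

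The 2 mitochondrial rRNAs, added after their values were seen, lay on the other side of 0. MT-RNR1, the small ribosomal subunit RNA, stood at 2377, 2808 and 2374 TPM in control replicates 1, 2 and 3 and at 1264, 1886 and 1701 TPM in the PRPF39 shRNA replicates. Its log2 change was -0.68 ± 0.20 (SE; adjusted p = 0.171, edgeR), and 2 of the 10 other settings called it lower. With the filter at 5 CPM its adjusted p was 0.0342 (edgeR), and 1845 of 20223 transcripts were called lower. DESeq2 gave an adjusted p of 0.0135 and called 4126 of 97571 transcripts lower. MT-RNR2, the large subunit RNA, was at -0.58 ± 0.24 on the log2 scale (SE; adjusted p = 0.310, edgeR), and its groups overlapped. These rRNAs carry only short poly(A) tails, and their share of TPM was 0.749% to 1.02% in control and 0.489% to 0.730% in PRPF39 shRNA libraries. Their share of estimated reads overlapped, at 0.672% to 1.04% in control and 0.464% to 0.714% in PRPF39 shRNA libraries. The part of the lower rRNA share of TPM in the mRNA values was not tested.

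**Figure D4:**
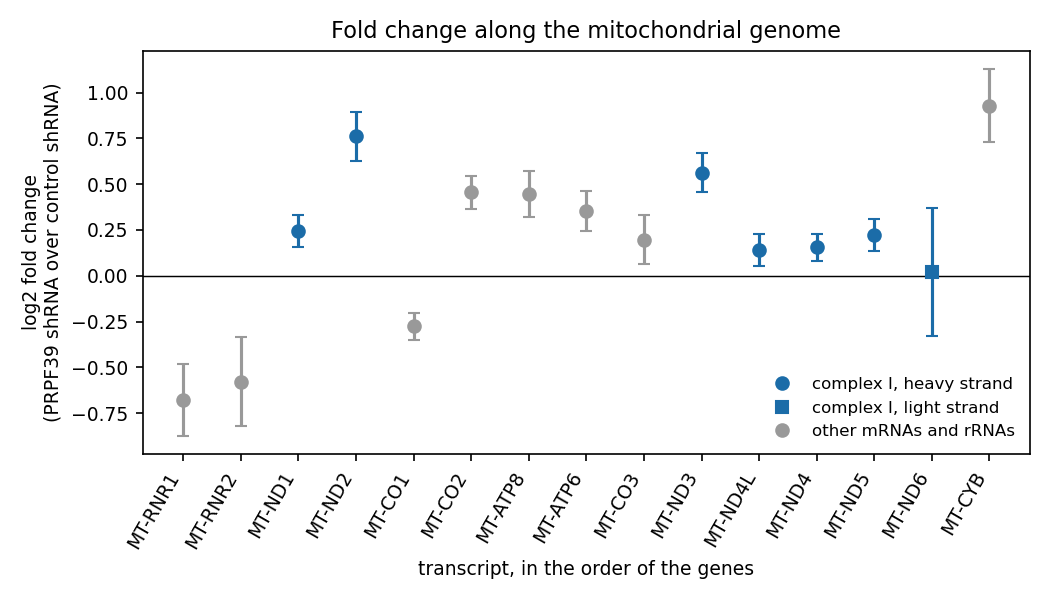
Log2 fold change (PRPF39 shRNA over control shRNA) with its SE from the edgeR fit over 3 libraries per group, for 15 mitochondrial transcripts in gene order: complex I mRNAs in blue (square for the light-strand MT-ND6), the other mRNAs and the rRNAs in grey. MT-ND2 (0.76), MT-ND3 (0.56) and MT-CYB (0.93) stand highest, and MT-CO1 and both rRNAs are below 0.

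The mean pattern of the 7 over the 6 libraries was compared with that of 13981 transcripts of at least 10 CPM, as a description. Each of the 7 entered this mean equally, without scaling for its spread. In control libraries the coefficient of variation in CPM was 48.4% for MT-ND6, against 6.89% to 17.3% for the heavy-strand mRNAs. The part of MT-ND6 in the ranks below was not tested. The libraries fall into the 2 shRNA groups, so the points are not independent, and no p-value is given. Pearson's r was at least 0.9 for 628 transcripts (4.49%). The closest were ENST00000512944 (r = 0.994) and ENST00000503252 (r = 0.993). Of the mitochondrial mRNAs, MT-ATP8 ranked 55, MT-ATP6 162, MT-CYB 351, MT-CO2 1305 (r = 0.85) and MT-CO3 3338 (r = 0.71), and MT-CO1 ran the other way (r = -0.75).

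How reads were shared between transcripts differed among the 7. The nuclear genome holds copies of mitochondrial genes, and RefSeq lists between 25 (MT-ND3) and 45 (MT-ND5) pseudogenes named after each of the 7. The estimated reads of MT-ND3 were whole numbers in 6 of 6 libraries and those of MT-ND4L in 5 of 6, within 0.001 reads. Those of MT-ND6 were whole in 3 of 6. Those of MT-ND1, MT-ND2, MT-ND4 and MT-ND5 were whole in none, so reads had been divided with other transcripts, and their values are uncertain to that extent. For MT-ND3, which has the second largest log2 change of the 7, no divided reads were seen.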

How the data were processed

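RNA with poly(A) tails was sequenced from 6 HEK293 libraries, 3 per group, grouped by sample title. The authors deposited estimated counts per transcript, not scaled for depth, and TPM values computed with each library's own effective lengths, per the file headers. Build hg38, the aligner STAR 2.7.9a, the quantifier Salmon 0.11.1, the trimmer cutadapt 2.1 and the test tool DESeq2 1.32.0 are named per the submitters' processing notes; options and annotation release are not given in the sources used here. Rounded counts were tested over all transcripts with edgeR 4.0.16 (R 4.3.3): filterByExpr with a minimum count of 10, TMM factors, the quasi-likelihood test of group, and Benjamini-Hochberg adjustment, with a threshold of 0.05. The fit was run on simulated counts whose changes were larger than those of these mRNAs, so its power for changes of this size was not examined. Standard errors are the log2 change divided by the square root of F. DESeq2 1.42.0, limma 3.58.1 (voom, and log2(TPM + 1)), 2 other normalizations, TMM factors without mitochondrial transcripts, 2 other filters, effective-length offsets, a replicate block and leaving out each library were the alternatives. The rRNAs and the ratios of all pairs were added after the data were seen. Log2 CPM for the pattern comparison used a prior count of 2. All 7 mRNAs and, where lengths matched RefSeq, the other mitochondrial mRNAs are named. The mRNAs and lists were chosen with earlier results of these data known. The tables used here hold no sequence of these genes, so none is shown.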

Additional observations from a re-analysis of the deposited data

How the results depend on the processing

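The log2 changes of MT-ND1, MT-ND2, MT-ND3, MT-ND4L, MT-ND4 and MT-ND5 stayed above 0 in the 10 other settings and the 6 fits with 1 library left out, from 0.07 (MT-ND4L) to 0.91 (MT-ND2). Of the 7 mRNAs, 0 were called higher; with a mean of at least 5 CPM, DESeq2 and limma-voom the number was 2, and with effective-length offsets 1. The log2 change of MT-ND2 in these 4 was 0.71, 0.78, 0.79 and 0.78, and that of MT-ND3 in the first 3 was 0.52, 0.58 and 0.59. MT-ND6 reversed to -0.030 at 5 CPM and to -0.00084 with effective-length offsets, and with 1 library left out it ran from -0.22 to 0.49. The change in the ratio of MT-ND4L to MT-ND4 was -0.10 in TPM and -0.017 in estimated counts, which use no effective length. Over all transcripts, 432 were called higher and 450 lower. The counts were 1729 and 1845 at 5 CPM, and 4898 and 4126 with DESeq2. With 1 library left out they ran from 0 to 14 and from 0 to 12. The replicate block gave 0 and 0, with 14264 at an unadjusted p under 0.05 (edgeR), and moved the adjusted p of MT-ND2 to 0.188. Replicate numbers were not taken as pairs: deviations of same-numbered libraries correlated at 0.158, 0.031 and 0 for numbers 1, 2 and 3. The cause of these differences was not tested. The lowest count of any of the 7 was 5085 reads, at which counting error alone is 1.40%. What part depth has in the spread between libraries was not tested.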
